A study of Homo sapiens with 6 samples.

Results

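Neurotransmitter and amine carriers of the solute carrier (SLC) family were examined in C4-2B prostate cancer cells that had acquired resistance to enzalutamide. The genes were chosen by symbol alone, as SLC6, SLC17, SLC18, SLC32 and SLC44 genes, which gave 38 of the 58024 genes in the table. C4-2B (C42-B in the sample labels) is an established human line derived from LNCaP xenografts in castrated mice. RNA-Seq was available for 3 libraries of parental cells and 3 libraries of enzalutamide resistant cells, with single-end reads of 50 bp. The resistant cells were selected in 1 to 20 µM enzalutamide, an antagonist of the androgen receptor, over no less than 6 months, with 5 µM as the later maintenance dose. The parental cells were passaged alongside in the vehicle, dimethyl sulfoxide. RNA extraction is described for cells in 10 µM enzalutamide, and whether this held for the parental cells too is not clear from the description. The surviving cells of 1 selection were pooled, and nothing says that the 3 libraries of a group came from separate selections or cultures. The p values therefore measure the spread between these libraries, which may be technical.

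Many SLC6 proteins bring gamma-aminobutyric acid (GABA), monoamines, creatine, taurine, glycine and other amino acids into the cell. They are driven by the sodium gradient, and many by that of chloride as well. SLC17, SLC18 and SLC32 include the carriers that fill synaptic vesicles with glutamate, amines, acetylcholine and GABA, driven by the vesicular proton pump, and SLC17 also holds phosphate and urate carriers and the lysosomal sialic acid carrier. SLC44 proteins are choline transporter-like proteins, which feed the synthesis of phosphatidylcholine. Prostate tissue is known for its polyamines and choline compounds, and neuroendocrine cells of the prostate carry secretory vesicles.

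Levels are given in FPKM (fragments scaled for the length of the transcript and for the size of the library), a unit that is scaled for length, so that levels of different genes can be set side by side. The libraries summed to between 792975 and 870110 FPKM. The table holds no read counts. From the smallest steps of value on genes of 1 transcript, the depth was estimated at 13300000 to 20200000 reads, and 1 read on a transcript of 4000 bases is worth 0.0130 to 0.0198 FPKM. Resistant replicate 0 had the most genes above 0, with 27153 against 21956 to 24080 in the other 5 libraries. It was also the library with the most carriers above 0, with 31 of 38 against 22 to 26, and 4 carriers were above 0 in it alone. Of the 9 luminal markers 2 rose and 5 fell. HOXB13 was at 96.1 to 110 FPKM in the parental and 97.8 to 105 FPKM in resistant cells, while KLK3 (prostate specific antigen) was at 2321 to 2857 FPKM and at 41.8 to 46.8 FPKM. The 7 neuroendocrine markers summed to 7.07 to 11.3 FPKM in the parental and 189 to 211 FPKM in resistant cells, where CHGA, CHGB, SYP and ENO2 rose, NCAM1 did not pass, and INSM1 was too low to be tested. The 5 fibroblast markers summed to 6.65 to 8.92 and 8.26 to 14.7 FPKM, with COL1A2 at no more than 0.132 FPKM in any library. In that list LUM and DCN rose, and DCN was listed at 0 in every parental library and at 3.63 to 4.35 FPKM in resistant cells. The 5 leukocyte markers summed to no more than 1.45 FPKM in any library, with PTPRC above 0 in resistant replicate 0 alone and CD3E listed at 0 throughout. The part of these differences in the carrier values was not tested. In bulk RNA, fewer cells that express a gene and less RNA of it per cell cannot be told apart.

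Resistant and parental libraries were compared on log2(FPKM + 0.1) with limma over the 24468 genes that averaged 0.1 FPKM or more, and genes whose adjusted p (Benjamini-Hochberg, two-sided) was under 0.05 are called up- or downregulated. Of the 38 carriers, 21 reached this mean and were tested, and 18 of them passed the threshold, 13 upregulated and 5 downregulated. Over all genes tested, 44.4% passed, and over protein-coding genes 55.7%. By direction, 22.1% of all genes tested were upregulated and 22.3% downregulated, and of the protein-coding genes 28.9% and 26.7%. The median log2 fold change of the tested carriers was 0.85, against −0.05 over all genes tested. A gene that reaches the mean through 1 group only had to differ, and this holds for 5 of the 21 carriers. These are SLC6A3, SLC17A4, SLC17A6 and SLC44A5, through the resistant cells, and SLC6A20, through the parental cells. Among the 16 carriers with both group means at 0.1 FPKM or more, 9 were upregulated and 5 downregulated, beside 19.8% and 24.6% of all genes of this kind. Over protein-coding genes of this kind the shares were 25.7% and 28.4%. The median log2 fold change of these 16 carriers was 0.66, against −0.11 over all genes of this kind. The values of the groups did not overlap in 19 of the 21 tested carriers, against 54.8% of all genes tested and 66.3% of the protein-coding genes tested. This count includes carriers that reached the mean through 1 group only. Among the 16 carriers with both group means at 0.1 FPKM or more, the groups did not overlap in 15. The shares were 55.7% over all genes of this kind and 64.8% over the protein-coding ones. With 3 libraries a group, the smallest two-sided p of an exact permutation test of 1 gene would be 0.1. Summed over the 38 carriers, the level was 308 ± 11.8 FPKM in the parental and 275 ± 14.1 FPKM in resistant cells (SD, n = 3 each).

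**Figure D1:**
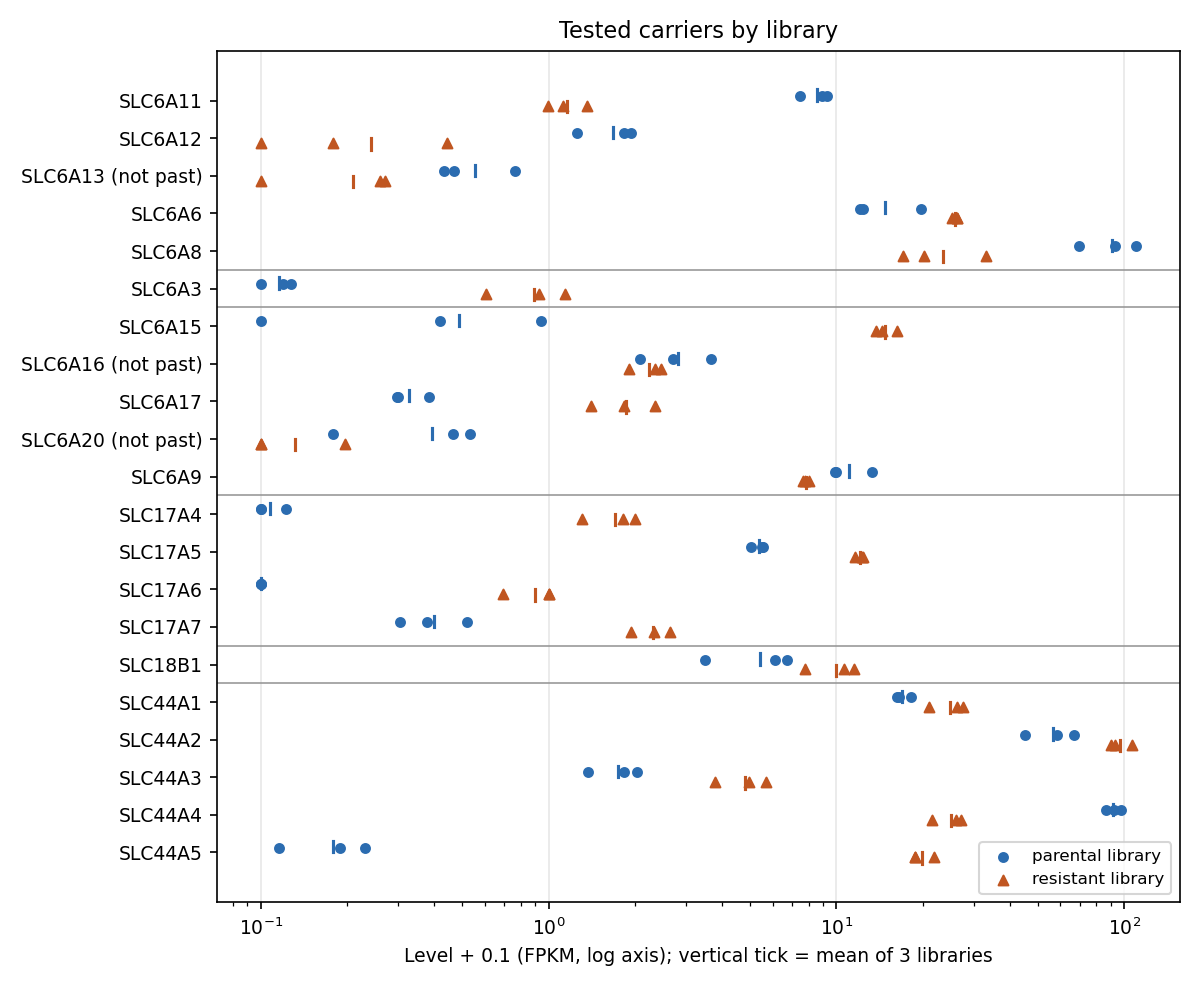
Level of each tested carrier in FPKM plus 0.1 on a log axis, with circles for the 3 parental and triangles for the 3 resistant libraries, ticks for the group means and lines between the functional groups. The groups overlap in SLC6A16 and SLC6A20 alone, and the widest separation is that of SLC44A5.

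The choline transporter-like genes were all tested, and all 5 passed the threshold, with 4 upregulated and SLC44A4 downregulated in the enzalutamide resistant cells. Of the protein-coding genes tested, 55.7% passed, with 28.9% upregulated and 26.7% downregulated. SLC44A5 reached the mean for testing through the resistant cells alone, so it could only come out higher there. The summed level of the 5 genes hardly moved while its make-up changed, so that a different gene led the family in each kind of cell. SLC44A4, which carries thiamine pyrophosphate and choline in epithelia, was at 96.9, 91.6 and 86.1 FPKM in parental cells and at 26.0, 21.4 and 27.0 FPKM in resistant cells. The lowest parental value was more than 3 times the highest resistant value. On the log2 scale it differed by −1.89 with a standard error of 0.11 (adjusted p = 5.59e-05). The gene lies on chromosome 6 (GRCh38, 31863192 to 31879046). NEU1, a lysosomal sialidase gene 287 bases away, rose by 0.58 on the log2 scale. SLC44A5, a little studied member of the family, was at 0.0161, 0.0889 and 0.131 FPKM in parental cells and at 18.6, 18.7 and 21.8 FPKM in resistant cells. The groups lie far apart, with the parental values close to 0, and the gene lies on chromosome 1 (75202129 to 75611114). The log2 ratio of resistant to parental was 6.84 ± 0.31 (SE), at an adjusted p of 2.49e-05, and 4.26 with a pseudocount of 1 FPKM.

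SLC44A2, a ubiquitous choline transporter-like protein also found in mitochondria, was at 66.6, 58.1 and 45.0 FPKM in the parental and at 92.5, 89.5 and 107 FPKM in resistant cells. The gene lies on chromosome 19 (10602457 to 10644557), and its groups do not overlap. Resistant minus parental came to 0.78 in log2 units (SE 0.16, adjusted p = 0.00767). SLC44A1 (105244622 to 105439171 on chromosome 9), the best characterized choline carrier of the family, was at 18.1, 16.1 and 16.4 FPKM and at 20.9, 27.3 and 26.1 FPKM. It rose by 0.54 on the log2 scale (standard error 0.13), with an adjusted p of 0.0148 that became 0.0546 without resistant replicate 2 in limma. SLC44A3 (94820342 to 94895246 on chromosome 1), whose substrate is less well established, was at 1.73, 1.27 and 1.93 FPKM in the parental and 4.86, 5.61 and 3.69 FPKM in resistant cells. This gave a log2 fold change of 1.46 ± 0.25 (SE; adjusted p = 0.00415). An antisense gene, LINC01057, overlaps SLC44A3 and reached 12.3 FPKM in resistant replicate 1, and did not pass. The methods name a library kit that keeps the strand and the labels name another TruSeq kit beside it, and whether the authors' quantification used the strand is not given in the sources used here, so overlapping genes on opposite strands may share reads.

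The 5 genes summed to 183, 167 and 150 FPKM in parental cells and to 163, 163 and 185 FPKM in resistant cells. The sums of the groups overlap. SLC44A4 held 55.1 ± 2.38% of this sum in the parental and 14.6 ± 1.39% in the resistant libraries (SD, n = 3 each). SLC44A2 went from 33.7 ± 3.25% to 56.5 ± 1.27%. SLC44A5 held 0.0499 ± 0.0396% and 11.6 ± 0.161%, while SLC44A1 held 10.2 ± 0.712% and 14.6 ± 2.05%.

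**Figure D2:**
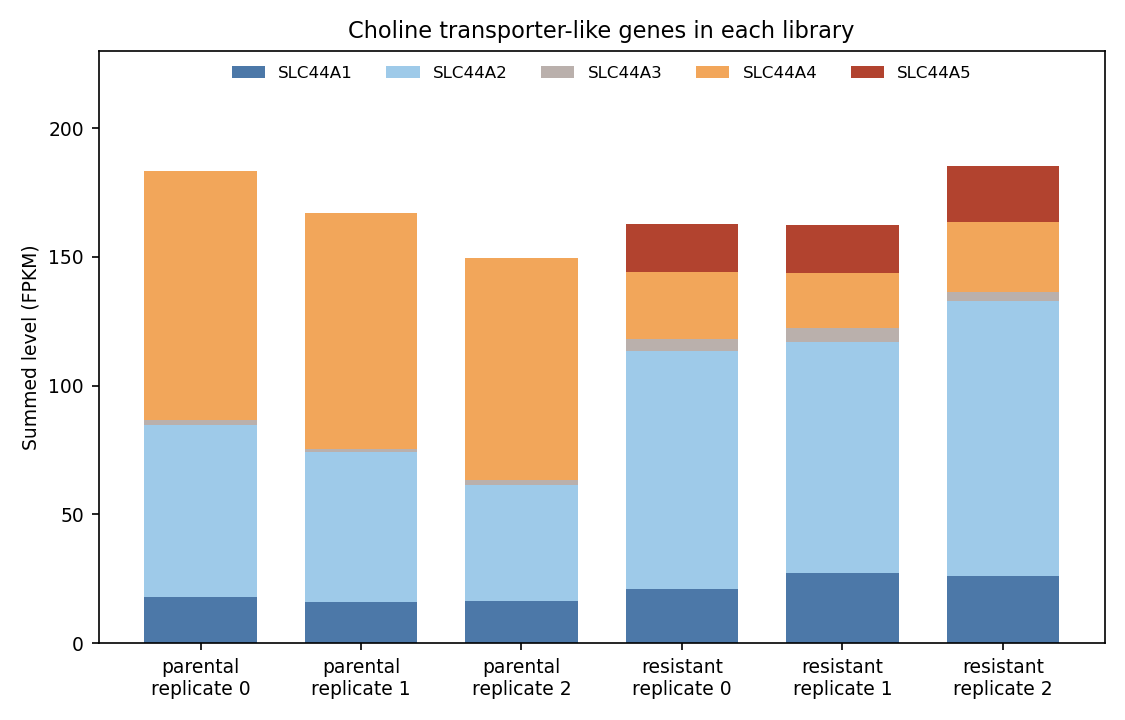
Stacked bars give the level in FPKM of the 5 choline transporter-like genes in each of the 6 libraries, with the axis starting at 0. The bars reach 150 to 183 FPKM in the parental and 163 to 185 FPKM in resistant cells, with SLC44A4 as the largest segment of the parental and SLC44A2 of the resistant bars.

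The stretches before the RefSeq transcription start of SLC44A5 and SLC44A4, which moved in opposite directions, are shown because their base composition differs. Sequences are from RefSeq (GRCh38.p14), 250 bases long, 5′ to 3′ on the strand of the gene, which is the minus strand for both. Capitals mark matches on either strand to 5 short motifs. The TATA box was searched as TATAAA. The GC box was searched as GGGCGG, and matches to it can overlap. The CCAAT box was searched by the letters of its name. The androgen receptor half-site was searched as AGAACA. The E-box was searched as CACGTG, and no printed stretch holds it.
SLC44A5, chr1:75611115-75611364: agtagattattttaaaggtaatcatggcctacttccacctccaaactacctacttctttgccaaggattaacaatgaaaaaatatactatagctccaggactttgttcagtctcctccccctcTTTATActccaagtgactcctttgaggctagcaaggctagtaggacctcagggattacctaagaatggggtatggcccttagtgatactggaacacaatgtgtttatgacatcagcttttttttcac
SLC44A4, chr6:31878998-31879247: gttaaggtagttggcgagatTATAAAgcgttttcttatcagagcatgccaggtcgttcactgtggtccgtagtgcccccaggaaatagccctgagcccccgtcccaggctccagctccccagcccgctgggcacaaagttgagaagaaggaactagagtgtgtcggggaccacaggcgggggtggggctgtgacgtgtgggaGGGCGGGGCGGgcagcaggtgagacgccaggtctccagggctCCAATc
The SLC44A5 stretch holds 0 CpG dinucleotides, with 40.8% G and C, and the SLC44A4 stretch holds 12, with 61.2% G and C. The median over the 35116 promoters of the table was 11 CpG dinucleotides. Both stretches hold a match to the TATA box, as do 10.7% of all promoters in the table, while GC boxes were found for SLC44A4 and not for SLC44A5. Of the 38 carriers, 30 had a promoter in the table. The upregulated carriers among them had from 0 to 35 CpG dinucleotides with a median of 17, and the downregulated carriers from 9 to 30 with a median of 18.5. The androgen receptor half-site was found in 1 of the 30, SLC44A1, and in 12.4% of all promoters. A match is a description of these letters and not a binding site.

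Among the carriers of GABA, betaine, taurine and creatine, 3 were downregulated, 1 was upregulated and 1 did not pass. SLC6A11 and SLC6A12, which carry GABA, and the creatine carrier SLC6A8 fell in the resistant cells, and the taurine carrier SLC6A6 rose. SLC6A11 (GAT-3), a GABA carrier best known from astrocytes, was at 7.36, 8.84 and 9.21 FPKM in the parental and at 0.899, 1.26 and 1.02 FPKM in resistant cells. The lowest parental value lay far above the highest resistant value. In log2 units the change was −2.89, its SE 0.20 and its adjusted p 1.09e-04. SLC6A11 lies on chromosome 3 (GRCh38, 10816201 to 10940714). Its stretch before the start, shown for comparison with the choline genes, holds 30 CpG dinucleotides and 80% G and C on the plus strand, and its capitals mark GC boxes.
SLC6A11, chr3:10815978-10816227: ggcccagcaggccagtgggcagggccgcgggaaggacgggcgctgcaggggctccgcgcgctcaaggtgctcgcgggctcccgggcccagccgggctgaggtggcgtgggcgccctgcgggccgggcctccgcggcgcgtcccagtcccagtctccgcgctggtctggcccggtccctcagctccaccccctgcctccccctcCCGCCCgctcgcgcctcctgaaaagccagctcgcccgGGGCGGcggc

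SLC6A12 (BGT1), which carries betaine and GABA and responds to osmotic stress in the kidney, was at 1.15, 1.73 and 1.84 FPKM in parental cells and at 0.345, 0 and 0.0781 FPKM in resistant cells. On the log2 scale it differed by −3.04 with a standard error of 0.61 (adjusted p = 0.00753), and ranged from −4.51 to −1.17 over pseudocounts of 0.01 and 1 FPKM. SLC6A13 (GAT-2), another GABA carrier, lies 6051 bases from SLC6A12 on chromosome 12 (SLC6A12 at 190077 to 214570) and on the same strand. It was at 0.332, 0.369 and 0.668 FPKM and at 0.170, 0 and 0.160 FPKM, a log2 fold change of −1.49 that did not pass (limma, adjusted p = 0.0731) although the groups do not overlap. With quantile normalization its adjusted p was 0.0157.

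SLC6A8, the creatine carrier, was by its mean the second highest carrier of the parental cells, at 92.3, 69.8 and 110 FPKM, and was at 33.0, 16.98 and 20.1 FPKM in resistant cells. Every resistant value lay below every parental value. The log2 ratio of resistant to parental was −1.99 ± 0.28 (SE), at an adjusted p of 0.00177. SLC6A8 lies on chromosome X (GRCh38, 153687926 to 153696588). PNCK, a kinase gene on the opposite strand that overlaps SLC6A8, moved the other way, from 0.446, 2.36 and 0.610 FPKM to 27.2, 38.0 and 34.8 FPKM, and whether reads of this pair were assigned by strand is likewise not given. SLC6A10P, a near-identical copy of the creatine carrier on chromosome 16, stayed at or below 0.280 FPKM, and how reads were divided between the copies is not given in the sources used here. SLC6A6 (14402576 to 14489349 on chromosome 3), the carrier of taurine, was at 12.0, 19.5 and 12.3 FPKM and at 25.2, 26.1 and 26.2 FPKM. The parental libraries scatter more widely than the resistant ones, and the groups do not overlap. Resistant minus parental came to 0.85 in log2 units (SE 0.20, adjusted p = 0.0132). GRIP2, an overlapping gene on the opposite strand, rose as well, from at most 0.0639 FPKM to between 1.36 and 2.08 FPKM. In the resistant libraries the ranges of SLC6A6 and SLC6A8 overlapped, with 25.8 ± 0.533 and 23.3 ± 8.47 FPKM (SD, n = 3 each), while in the parental libraries they were at 14.6 ± 4.26 and 90.6 ± 20.0 FPKM. The 6 genes of this group summed to 116 ± 16.8 FPKM in the parental and 50.5 ± 8.08 FPKM in resistant cells.

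The monoamine carriers of the plasma membrane were low in both kinds of cells. SLC6A3 (1392794 to 1445440 on chromosome 5), the carrier of dopamine, was at 0.0274, 0 and 0.0195 FPKM in parental cells and at 1.04, 0.827 and 0.509 FPKM in resistant cells. All resistant values lie above the parental values, which are close to the worth of 1 read. This gave a log2 fold change of 2.91 ± 0.43 (SE; adjusted p = 0.00217), and 0.81 with a pseudocount of 1 FPKM. SLC6A4, the serotonin carrier, reached at most 0.191 FPKM, and SLC6A2, the noradrenaline carrier, was listed at 0 in every library. Neither was tested.

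Of the 10 SLC6 carriers of glycine, proline and neutral amino acids, SLC6A15 and SLC6A17 were upregulated, SLC6A9 was downregulated, and SLC6A16 and SLC6A20 did not pass. SLC6A15 (B0AT2), which carries branched-chain amino acids and proline and is known from brain, was listed at 0, 0.842 and 0.320 FPKM in parental cells and at 16.2, 14.3 and 13.7 FPKM in resistant cells. All resistant values lie above the parental values, whose spread is as large as their mean. In log2 units the change was 5.44, its SE 0.77 and its adjusted p 0.00186. With a pseudocount of 1 FPKM the change was 3.54. It was 4.55 without parental replicate 0 and 6.17 without parental replicate 1. SLC6A15 lies on chromosome 12 (GRCh38, 84859491 to 84913629). SLC6A17 (NTT4, 110150494 to 110202202 on chromosome 1), a carrier of neutral amino acids in synaptic vesicles, was at 0.284, 0.199 and 0.199 FPKM and at 1.73, 1.31 and 2.25 FPKM. On the log2 scale it differed by 2.49 with a standard error of 0.34 (adjusted p = 0.00162), and by 1.16 with a pseudocount of 1 FPKM. For both genes every resistant value lay above every parental value.

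SLC6A9 (GlyT1, 43991500 to 44031467 on chromosome 1), the glycine carrier of glia and many other cells, was at 9.80, 13.2 and 9.85 FPKM in the parental and 7.70, 7.92 and 7.54 FPKM in resistant cells. The change was −0.49 ± 0.15 (SE) on the log2 scale, and limma gave an adjusted p of 0.0395. The call did not hold without any 1 of the 6 libraries, with adjusted p values of 0.0507 to 0.101, nor with each library rescaled to the same sum, with an adjusted p of 0.0787. SLC6A16, an orphan member of the family, was at 1.97, 3.56 and 2.61 FPKM and at 2.36, 1.81 and 2.25 FPKM, and the groups overlap (limma, adjusted p = 0.402). SLC6A20, a carrier of proline and related imino acids, was at 0.367, 0.433 and 0.0779 FPKM and at 0.0963, 0 and 0 FPKM (limma, adjusted p = 0.0959), and the adjusted p was 0.0457 without parental replicate 2. SLC6A5, SLC6A7, SLC6A18 and SLC6A19 were too low to be tested, with no value above 0.0785 FPKM, and SLC6A14 was listed at 0 in every library.

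In the SLC17 group, 4 of the 9 genes were tested, and all 4 were upregulated, beside 28.9% of the protein-coding genes tested. SLC17A4 and SLC17A6 reached the mean for testing through the resistant cells alone, so they could only come out higher there. The 4 genes carry quite different substrates. SLC17A5 (sialin), which exports sialic acid from lysosomes, was at 4.94, 5.40 and 5.45 FPKM in the parental and at 11.5, 12.1 and 12.2 FPKM in resistant cells. The replicates lie close together, and the means differ 2.27-fold. The log2 ratio of resistant to parental was 1.17 ± 0.11 (SE), at an adjusted p of 3.84e-04. SLC17A5 lies on chromosome 6 (GRCh38, 73593379 to 73653992). SLC17A7 (VGLUT1, 49429401 to 49442360 on chromosome 19), a vesicular glutamate carrier of excitatory neurons, was at 0.278, 0.419 and 0.204 FPKM and at 2.55, 1.83 and 2.22 FPKM. Resistant minus parental came to 2.55 in log2 units (SE 0.33, adjusted p = 0.00129), and 1.30 with a pseudocount of 1 FPKM.

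SLC17A6 (VGLUT2, 22338381 to 22379503 on chromosome 11), the other main vesicular glutamate carrier of neurons, stood at 0 in each of the 3 parental libraries and at 0.593, 0.903 and 0.903 FPKM in resistant cells (limma, adjusted p = 0.00111). No fold change is given against values of 0, which can also be failed estimates. CTD-2140G10.2, a non-coding gene of the opposite strand in the same quantified locus, was likewise listed at 0 in the parental and at 3.90 to 6.03 FPKM in resistant cells. SLC17A4, an intestinal phosphate and urate carrier, was at 0, 0 and 0.0229 FPKM and at 1.90, 1.21 and 1.71 FPKM. This gave a log2 fold change of 3.97 ± 0.38 (SE; adjusted p = 3.56e-04), and ranged from 1.36 to 6.74 over the pseudocounts. SLC17A4 lies 1716 bases from SLC17A1 in a cluster with SLC17A3 and SLC17A2 on chromosome 6. The other 3 genes of the cluster were not tested, with no value above 0.306 FPKM, that of SLC17A3 in resistant replicate 0. SLC17A8 (VGLUT3) was above 0 in resistant replicate 0 alone, and SLC17A9, a vesicular nucleotide carrier, was at no more than 0.142 FPKM.

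Of the vesicular carriers of amines, acetylcholine, polyamines and GABA, SLC18B1 was the single gene tested. SLC18B1 (132769370 to 132813339 on chromosome 6), which loads polyamines into vesicles, was at 6.64, 6.01 and 3.38 FPKM in the parental and at 7.68, 10.5 and 11.4 FPKM in resistant cells. The change was 0.91 ± 0.29 (SE) on the log2 scale, and limma gave an adjusted p of 0.0455. Without any 1 library other than parental replicate 0 the adjusted p was 0.0516 to 0.142, and with quantile normalization it was 0.0547. SLC18A2 (VMAT2), the monoamine carrier of neurons, reached 0.0777 FPKM at most. SLC18A1 (VMAT1), known from neuroendocrine cells, was at 0.137 FPKM in resistant replicate 0 and listed at 0 in the other libraries. SLC32A1, the vesicular carrier of GABA, was above 0 in parental replicate 0 alone, and SLC18A3, the carrier of acetylcholine, was listed at 0 in every library.

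**Figure D3:**
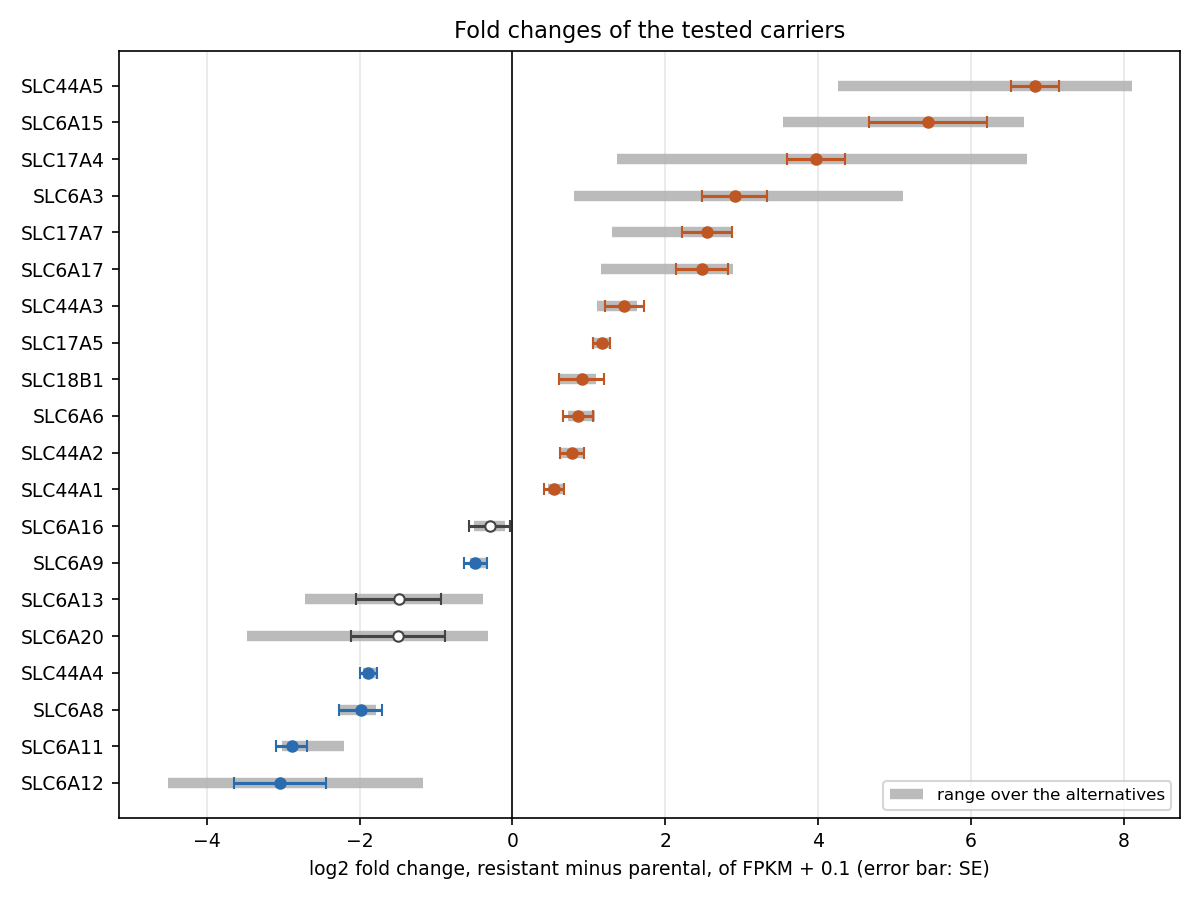
Points give the log2 fold change of FPKM + 0.1, resistant minus parental, of 20 tested carriers with the standard error as a bar, filled where the adjusted p is below 0.05 and open where it is not, and grey bands span the values under the alternatives tried. SLC17A6 is left out because it is listed at 0 in all parental libraries, and the bands are widest for genes below 1 FPKM in a group, such as SLC17A4 and SLC6A3.

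Ordered by level, SLC44A4 and SLC6A8 led the parental cells at 91.5 ± 5.41 and 90.6 ± 20.0 FPKM (SD, n = 3 each), with overlapping ranges, and SLC44A2 followed at 56.6 ± 10.9 FPKM. SLC44A1 and SLC6A6 came next, also with overlapping ranges. In the resistant cells SLC44A2 stood alone at the top with 96.2 ± 9.09 FPKM. SLC6A6, SLC44A4, SLC44A1, SLC6A8 and SLC44A5 followed between 25.8 and 19.7 FPKM, and each overlapped the next in this order. SLC6A15 came after them at 14.7 ± 1.30 FPKM with no overlap. A mean of at least 0.1 FPKM was reached by 17 carriers in the parental and by 21 in the resistant cells.

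Of the 18 carriers that passed the threshold, 8 had a nearest tested protein-coding neighbour that was called in the same direction, or 44.4%, against 39.1% of the 8231 called protein-coding genes. CNN3, an actin-binding protein gene 1703 bases from SLC44A3, rose by 6.56 on the log2 scale, and CD109, which lies 41793 bases from SLC17A5, rose by 4.91. These neighbours and NEU1 were named after their values were seen. SLC6A8 and SLC6A9 both fell while an overlapping gene on the opposite strand rose, which was CCDC24 for SLC6A9, with a log2 fold change of 0.74.

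Enzymes that make or break down the substrates of these carriers were looked up in the same fit. For the counts of calls in their lists, 44.4% of all genes tested and 55.7% of the protein-coding ones passed the threshold. Of the protein-coding genes tested, 28.9% were upregulated and 26.7% downregulated. No list was tested against these shares. Of 13 genes of creatine, taurine and glycine metabolism, 10 were tested, with 4 upregulated, 3 downregulated and a median log2 fold change of −0.23. Creatine genes were among those that fell, as the creatine carrier did. GAMT, which completes creatine synthesis, was at 167, 141 and 158 FPKM in the parental and at 46.9, 55.8 and 52.9 FPKM in resistant cells. In log2 units the change was −1.58, its SE 0.10 and its adjusted p 6.88e-05. CKMT2, a mitochondrial creatine kinase, was at 3.60 to 3.99 FPKM and at 0.180 to 0.394 FPKM, a log2 fold change of −3.44. CKB, the brain-type creatine kinase, which was named after its values were seen, had a log2 fold change of −0.74. The mitochondrial kinases CKMT1A and CKMT1B, near-identical copies that were also named after their values were seen, went the other way, with log2 fold changes of 0.49 and 0.67. SHMT2, which makes glycine from serine in mitochondria, rose by 0.73 on the log2 scale.

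Of 12 genes of GABA and glutamate metabolism, 9 were tested, with 3 upregulated, 2 downregulated and a median log2 fold change of 0.03. ABAT, which breaks down GABA, fell as SLC6A11 and SLC6A12 did, from 8.70, 9.26 and 10.3 FPKM to 2.10, 1.69 and 1.16 FPKM. On the log2 scale it differed by −2.48 with a standard error of 0.24 (adjusted p = 3.93e-04). SLC1A1, a glutamate carrier of the plasma membrane, rose from 0.734 to 1.32 FPKM in the parental to 6.33 to 9.10 FPKM in resistant cells, a log2 fold change of 2.71. ALDH5A1, which acts after ABAT in the breakdown of GABA and was named after its values were seen, went the other way, from 9.84, 9.96 and 10.3 FPKM to between 13 and 17.7 FPKM, with a log2 fold change of 0.66 (adjusted p = 0.0107). GLS2, a glutaminase, rose by 1.21 on the log2 scale. GAD1, which makes GABA and was named after its values were seen, was at 1.97 to 4.92 FPKM and at 1.23 to 2.71 FPKM, and did not pass (limma, adjusted p = 0.284).

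Of 12 genes of monoamine synthesis and breakdown, 7 were tested, with 3 upregulated, 2 downregulated and a median of 0.29. MAOA, which oxidizes monoamines, was at 253 to 294 FPKM in the parental and at 13.8 to 16.0 FPKM in resistant cells. HNMT, which inactivates histamine, was listed at 0 in every parental library and at 8.75, 8.91 and 10.6 FPKM in resistant cells. PNMT, which makes adrenaline, was likewise listed at 0 and then at 1.11, 1.54 and 1.94 FPKM. TH and DBH, which act before PNMT in that pathway and were named after their values were seen, were at no more than 0.0575 FPKM. Of 14 genes of acetylcholine and choline metabolism, 10 were tested, with 3 upregulated, 4 downregulated and a median log2 fold change of −0.04. The enzymes that split choline esters were higher, with ACHE at 0.0958, 0.361 and 0 FPKM in the parental and 16.6, 6.97 and 14.8 FPKM in resistant cells, and BCHE at 0.467 to 0.964 and 6.07 to 7.88 FPKM. PCYT1A, a regulatory enzyme of phosphatidylcholine synthesis, fell from 37.9, 36.4 and 45.9 FPKM to 19.2, 19.6 and 21.97 FPKM, a log2 fold change of −0.98 (SE 0.12, adjusted p = 9.12e-04). CHAT, which makes acetylcholine and was named after its values were seen, was listed at 0 in every library, as was SLC18A3, which lies within the same locus.

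The vesicular proton pump energizes the vesicular carriers, and 20 of its 22 subunit genes were tested, with 4 upregulated, 6 downregulated and a median log2 fold change of −0.02. Their summed level was 1187 to 1280 FPKM in the parental and 1075 to 1159 FPKM in resistant cells. ATP6V1E2 fell by 2.35 and ATP6V0D1 by 1.03 on the log2 scale, and ATP6V1C2, a tissue-restricted subunit, rose from at most 0.144 FPKM to between 5.11 and 8.83 FPKM.

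**Figure D4:**
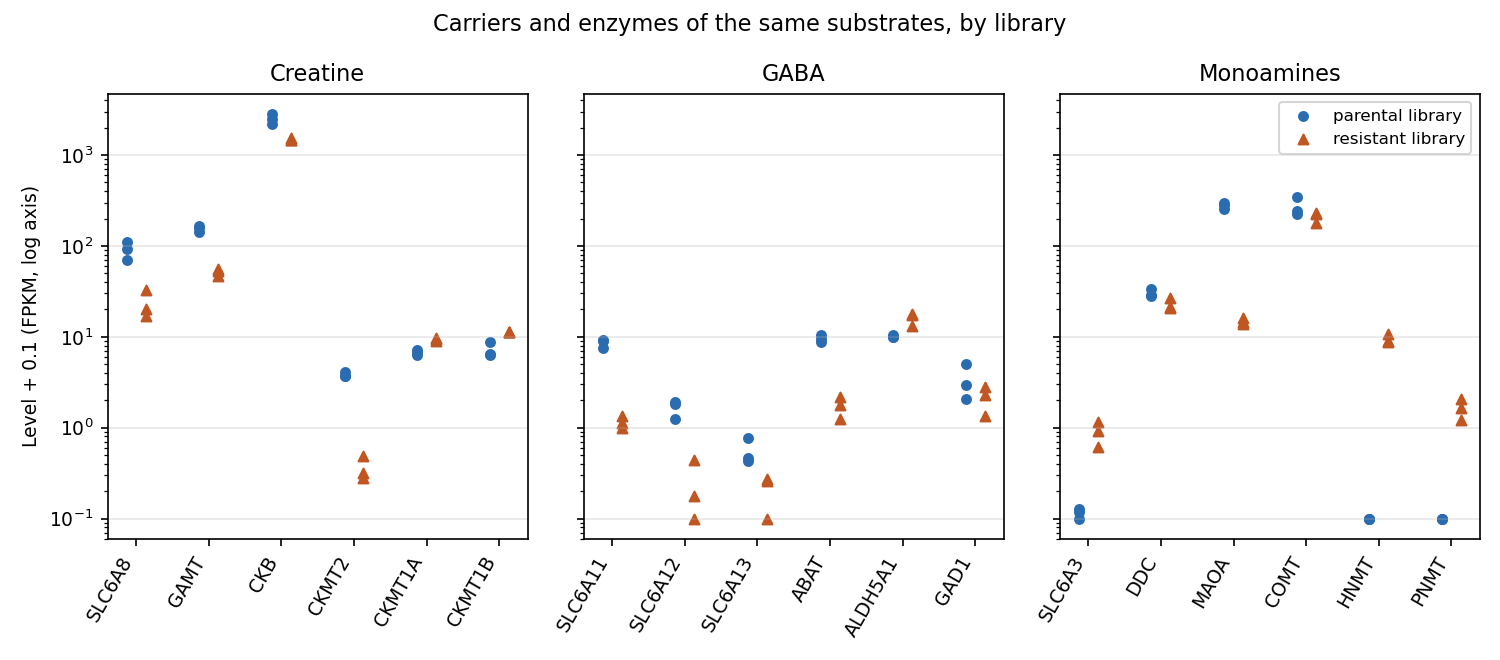
Level in FPKM plus 0.1 on a log axis of carriers and enzymes of creatine, GABA and monoamines, with circles for the 3 parental and triangles for the 3 resistant libraries. SLC6A8 and GAMT, SLC6A11 and ABAT, and MAOA lie lower in every resistant library, ALDH5A1 lies higher, and HNMT and PNMT are listed at 0 FPKM in every parental library.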

How the data were processed

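RNA-Seq of 3 parental and 3 enzalutamide resistant C4-2B libraries was analysed. The authors used TrimGalore 0.4.3 for trimming, STAR 2.5.3 for alignment to GRCh38 (GENCODE v25) and Cufflinks 2.2.1 for expression estimates. The submitters' processing notes name other tools and the build mm10, while the loci of the table are human GRCh38 positions. The deposited table gives 1 FPKM value per gene and library and names no unit. That the deposited unit is FPKM follows from Cufflinks and from the range of the values, and how libraries were scaled against each other is not given in the sources used here. The table holds no counts, so no counting interval was possible.

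Groups were taken from the sample titles. The tests used limma 3.58.1 under R 4.3.3 on log2 values (mean-variance trend, two-sided, Benjamini-Hochberg over 24468 genes, pseudocount 0.1 FPKM, mean of at least 0.1 FPKM, threshold 0.05), and the fit was tested on simulated data. Tables were handled with Python 3.11.15 and pandas 2.3.3. Positions are from GENCODE v44, which held all 38 carriers, and promoters from RefSeq. Depth was estimated with fragments assumed to be 200 bases long, from genes with 1 transcript of 600 to 8000 bases.

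The carriers, the related lists and the cell type markers were chosen with earlier results of these data known. The carriers are named, those past the threshold with a group mean of 1 FPKM or more with all values, and of each related list the 3 genes that rank first by adjusted p. Other related genes are marked as named after their values were seen, except the cell type markers and genes that overlap a carrier. Some genes of the lists are not reported here. The alternatives covered the pseudocount, the filter, the scaling, the variance trend, a replicate block, each library left out, the thresholds and the definition of the carriers.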

Additional observations from a re-analysis of the deposited data

How the results depend on the processing

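Over the alternatives tried, between 9 and 13 carriers were upregulated and between 4 and 7 downregulated. Leaving out any 1 library gave 11 to 13 upregulated and 4 to 5 downregulated carriers. With the thresholds themselves changed, 10 were upregulated and 4 downregulated at an adjusted p under 0.01, and 9 and 4 with a change of at least 2-fold required. With the threshold kept at 0.05, single carriers gave 308 values under the other alternatives, of which none changed direction, 20 lost the call and 3 gained it, and 15 of the 18 called carriers kept the call wherever they were tested. The calls lost in those were 10 of SLC6A9, 9 of SLC18B1 and 1 of SLC44A1. The median log2 fold change of the tested carriers was 0.28 without a filter on low values, 0.96 with median-of-ratios scaling and 0.62 to 1.02 with each library left out. That without a filter covers more carriers, most of them close to 0 FPKM. Over all genes, 10868 were called, 9303 to 10190 with each library left out and 6979 when a change of at least 2-fold was required as well. Genes below 1 FPKM in a group depend on the pseudocount for the size of their change.

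The replicate numbers of the groups did not pair the libraries, with a Pearson r of their deviations from −0.00301 to 0.0165 for libraries of the same number. With the replicate block, 12 carriers were upregulated and 4 downregulated, and SLC6A9 and SLC18B1 lost the call. Without read counts, how far depth limits the low carriers could not be computed.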
